A study of Mus musculus with 20 samples.

Results

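The genes described here are Msln, Wt1, Upk3b and Gpm6a, chosen by name as genes of the mesothelium, the cell sheet that covers the lung. All 4 were on the Affymetrix Mouse430A_2 array, out of 12393 genes with a probe set (a group of short probes for one transcript) that named only them. They were read by 6 probe sets: 1 each for Msln and Wt1, and 2 each for Upk3b and Gpm6a. Each array held RNA from the left lung lobe of 1 embryo on a C57Bl6 background, with 5 animals in each of 4 groups. The E16.5 GR ablation and E18.5 GR ablation groups carried the genotype GRCol1-Cre, in which the glucocorticoid receptor (GR, Nr3c1) is removed from mesenchymal cells. Their Cre recombinase comes from a bacterial artificial chromosome with the Col1a2 locus, so the deletion reaches cells in which that locus is active, and whether it reached mesothelial cells was not measured. The E16.5 control and E18.5 control groups carried GR flox, without a stated Cre. E16.5 and E18.5 are days of gestation.

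The pleural mesothelium is a single layer of flat cells on the outside of the lung. It arises from the lining of the body cavity, makes a slippery surface, and in the fetus sends growth factors and some cells into the mesenchyme beneath it. WT1, a zinc finger transcription factor, marks this lineage during development. MSLN, or mesothelin, is a glycoprotein held on the cell surface by a lipid anchor and binds the mucin MUC16. UPK3B belongs to the uroplakins, membrane proteins of the bladder lining, and is made by mesothelium. GPM6A is a membrane glycoprotein best known from neurons, where it promotes fine cell extensions, and is also made by mesothelium. Whole lobes were measured, and mesothelium is a thin part of a lobe, so fewer mesothelial cells and less RNA per mesothelial cell cannot be told apart. RNA of these genes from other cells of the lobe cannot be told apart from mesothelial RNA either.

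Values are GCRMA log2 values as deposited: a difference of 1 is a doubling. A value below 4 is called dim, and a gene was tested if it lay above 4 on 5 or more of the 20 arrays. This held for 8068 genes and for 3 of the 4 described here. Wt1 did not, since none of its 20 values reached 4. A gene was called changed at an adjusted p under 0.05 (limma, Benjamini-Hochberg over the 8068 genes).

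No upstream sequence was at hand for Wt1 or for Msln, which also fell at E18.5 in GR ablation lungs. The upstream sequences of Gpm6a and Upk3b are shown because both genes fell at E18.5 in GR ablation lungs and the glucocorticoid receptor binds DNA. They are the 250 bases before each start site in RefSeq, build GRCm38.p6, all on the plus strand: chr8:54779184-54779433 for the first start of Gpm6a, chr8:54954478-54954727 for its second start, and chr5:136038246-136038495 for Upk3b. Capitals mark the letters AGAACA, or TGTTCT when read on the opposite strand, the half-site that the glucocorticoid receptor reads.
Gpm6a, start 1: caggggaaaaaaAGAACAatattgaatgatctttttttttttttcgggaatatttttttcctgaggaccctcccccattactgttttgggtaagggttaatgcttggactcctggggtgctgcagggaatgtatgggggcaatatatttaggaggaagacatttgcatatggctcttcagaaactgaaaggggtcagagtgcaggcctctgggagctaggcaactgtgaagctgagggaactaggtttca
Gpm6a, start 2: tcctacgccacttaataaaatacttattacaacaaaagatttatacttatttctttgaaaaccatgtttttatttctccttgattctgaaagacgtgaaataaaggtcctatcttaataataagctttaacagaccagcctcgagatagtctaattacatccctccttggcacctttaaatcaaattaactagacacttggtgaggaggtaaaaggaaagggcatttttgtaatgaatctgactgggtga
Upk3b: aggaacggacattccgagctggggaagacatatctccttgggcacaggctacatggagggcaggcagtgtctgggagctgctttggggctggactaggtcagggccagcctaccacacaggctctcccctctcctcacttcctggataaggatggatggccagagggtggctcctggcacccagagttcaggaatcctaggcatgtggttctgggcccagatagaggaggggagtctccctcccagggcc
The first Gpm6a window held 1 such half-site, and the second Gpm6a window and the Upk3b window held none. These letters occurred in 16.1% of the 32851 RefSeq windows of the same length. The full palindromic glucocorticoid response element, searched on both strands, occurred in 3 of the 32851 windows and in none of those printed. The letters GCGGGGGCG, or CGCCCCCGC on the opposite strand, read by EGR1 and WT1, occurred in 2.57% of the windows and in none of those printed. The motifs were chosen after the expression values had been seen, and a match or its lack in so short a window is a description only.

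Across the series, Nr3c1 lay at 30.4% of its control level in E16.5 GR ablation lungs and at 32.5% in E18.5 GR ablation lungs, with all 5 mutant animals below all controls at each stage. Within groups, arrays correlated at 0.989 to 0.998 over all probe sets, and no 2 arrays held identical values. By sex-linked genes, females were 5 of 5 in E16.5 GR ablation, 1 of 5 in E16.5 control, 2 of 5 in E18.5 GR ablation and 3 of 5 in E18.5 control. In the E18.5 controls, 2 animals stood apart in a list of 10 skeletal muscle genes: the mean log2 level of the list was 6.84 in replicate 3 and 5.03 in replicate 4, against 3.39 to 3.55 in the other E18.5 controls and 3.13 to 3.38 in E18.5 GR ablation lungs. At E16.5, GR ablation replicate 4 stood at 4.97 and control replicate 4 at 3.72, with the others at 3.05 to 3.26. The E18.5 differences of the members are therefore also given without replicate 3 and without replicates 3 and 4, and so are list counts and list genes where either omission changed a call.

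At E18.5, all 3 tested genes were lower in GR ablation lungs than in controls, and in each of them all 5 mutants lay below all 5 controls. Msln stood at 30.9% of its control level, Gpm6a at 52.5% and Upk3b at 59.9% (ratios of means taken on the log2 scale). Wt1 was dim in every lung and was not tested. In this comparison 15.9% of all tested genes were called lower, 18.6% were called higher, and 9.13% were lower with no overlap between groups, so such a fall was common.

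Msln had log2 values of 8.79, 8.95, 9.54, 8.71 and 9.81 in E18.5 GR ablation lungs, against 10.97, 11.05, 10.21, 11.00 and 11.05 in E18.5 controls. The lowest control, replicate 3, lay above the highest mutant, replicate 5, and the other 4 controls lay between 10.97 and 11.05. Msln averaged 9.16 ± 0.49 in GR ablation and 10.86 ± 0.36 in controls (SD, n = 5 each), a difference of -1.70 (SE 0.63, 95% CI -3.01 to -0.38, limma adjusted p = 0.0432). The spread that limma used came from all 4 groups, and the SD of Msln at E16.5 was 1.42 in GR ablation lungs, a wider spread than at E18.5. Fitted on the E18.5 arrays alone the adjusted p was 0.00107, while in the 4-group fit 10 of the 20 omissions of 1 array ended the call, and the range was 0.0188 to 0.0918. These were E18.5 GR ablation replicates 1, 2 and 4 (differences of -1.60, -1.64 and -1.58), E18.5 control replicates 1, 2, 4 and 5 (-1.67, -1.65, -1.66 and -1.65), E16.5 GR ablation replicate 3 and E16.5 control replicates 2 and 4 (each -1.70). With sex as a covariate the difference was -1.57 (adjusted p = 0.0645).

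Gpm6a had log2 values of 6.56, 6.64, 6.35, 6.47 and 6.77 in E18.5 GR ablation lungs, against 7.27, 7.41, 8.09, 7.44 and 7.23 in E18.5 controls. Control replicate 3 was again apart from its group, here on the high side, and the groups did not overlap. The means were 6.56 ± 0.16 in GR ablation and 7.49 ± 0.35 in controls, a difference of -0.93 (SE 0.16, limma adjusted p = 0.000271).

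Upk3b had log2 values of 9.02, 9.12, 9.40, 8.77 and 9.34 in E18.5 GR ablation lungs, against 9.63, 9.71, 10.47, 9.88 and 9.67 in E18.5 controls. Control replicate 3 was the highest of the 10, and the groups did not overlap with or without it. The means were 9.13 ± 0.25 in GR ablation and 9.87 ± 0.35 in controls, a difference of -0.74 (SE 0.19, limma adjusted p = 0.00525).

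Without E18.5 control replicate 3 the differences were -1.86 for Msln (adjusted p = 0.0344), -0.78 for Gpm6a (adjusted p = 0.000222) and -0.59 for Upk3b (adjusted p = 0.0108), by limma. Without replicates 3 and 4 they were -1.87 (adjusted p = 0.0609), -0.75 (adjusted p = 0.00110) and -0.54 (adjusted p = 0.0352), so the Msln call was lost with fewer arrays while its difference was larger.

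Wt1 had log2 values of 2.86, 3.08, 3.22, 3.06 and 3.22 in E18.5 GR ablation lungs, against 3.13, 3.22, 3.30, 3.31 and 3.23 in E18.5 controls. All 10 were dim, so the difference of -0.15 has no test. The transcription factor that defines the lineage could not be followed in these whole lobes at this sensitivity.

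**Figure D1:**
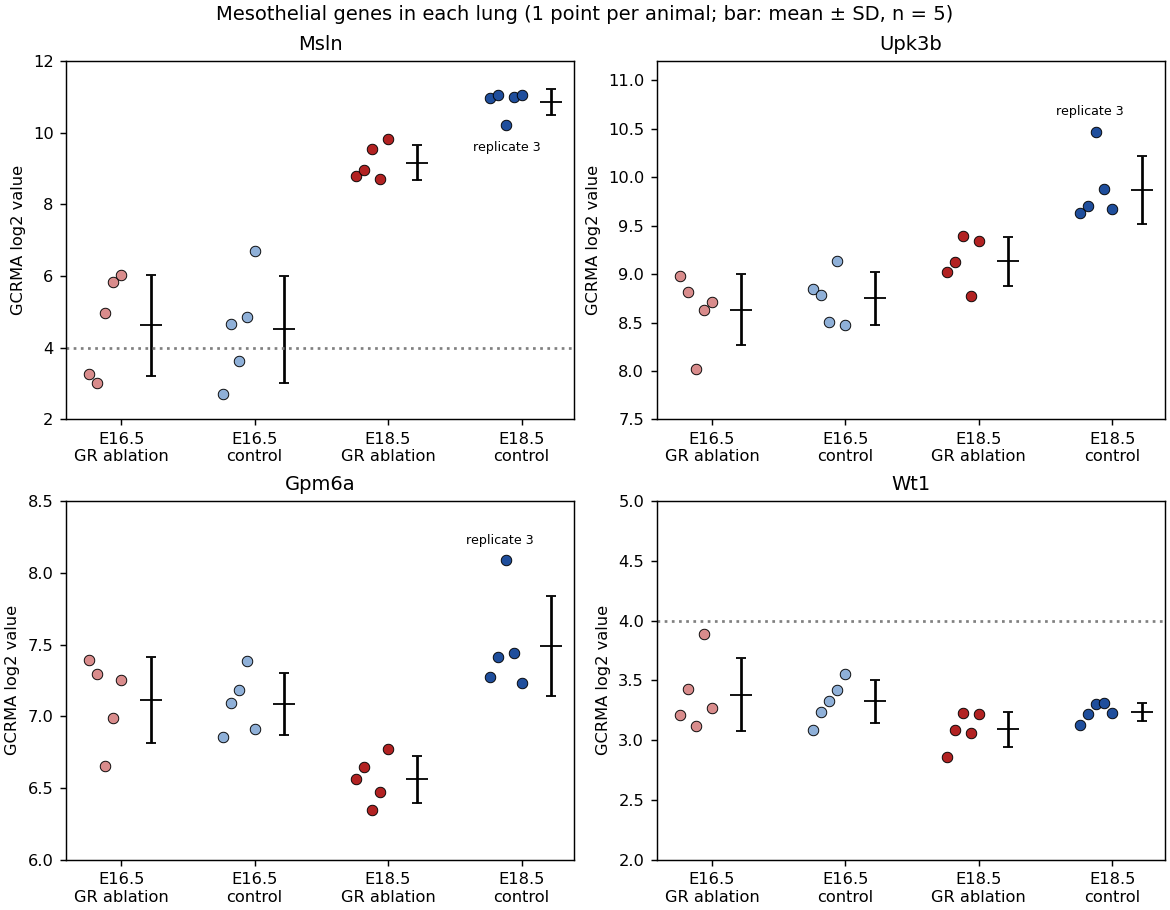
GCRMA log2 value (y axis) of the 4 genes in each animal, in E16.5 GR ablation, E16.5 control, E18.5 GR ablation and E18.5 control lungs; points are animals, the bar beside them is the mean ± SD (n = 5), the dotted line marks the dim level of 4, and y scales differ. At E18.5 the GR ablation points of Msln, Upk3b and Gpm6a lie below all controls, control replicate 3 stands low for Msln and high for the other 2, and Wt1 stays below 4 throughout.

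At E16.5 none of the 3 tested genes was called in GR ablation lungs, where 0.248% of all tested genes (20 of 8068) were called in either direction by limma and 356 had an unadjusted p under 0.05. The adjusted p was 1.00 for each.

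Msln had log2 values of 3.26, 3.01, 4.98, 5.82 and 6.04 in E16.5 GR ablation lungs, against 2.71, 4.66, 3.64, 4.86 and 6.71 in E16.5 controls. In each group 2 animals were dim and 3 were above 4, so animals of the same age and genotype differed more than the group means did. The difference was 0.11, with a 95% CI of -1.21 to 1.42, wide enough to hold a change either way.

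Gpm6a had log2 values of 7.39, 7.29, 6.65, 6.99 and 7.25 in E16.5 GR ablation lungs, against 6.86, 7.09, 7.18, 7.38 and 6.91 in E16.5 controls. The groups overlapped almost fully. The difference was 0.03 (95% CI -0.30 to 0.36).

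Upk3b had log2 values of 8.99, 8.82, 8.02, 8.63 and 8.71 in E16.5 GR ablation lungs, against 8.85, 8.79, 8.51, 9.13 and 8.47 in E16.5 controls. GR ablation replicate 3 was the lowest of the 10 and the rest intermingled. The difference was -0.12 (95% CI -0.51 to 0.27).

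Wt1 had log2 values of 3.21, 3.43, 3.11, 3.89 and 3.27 in E16.5 GR ablation lungs, against 3.08, 3.24, 3.32, 3.42 and 3.55 in E16.5 controls. It was dim at this stage too, with an untested difference of 0.06. The E16.5 groups held 5 females of 5 in GR ablation and 1 of 5 in controls. With sex as a covariate the E16.5 difference was -0.39 for Msln and 0.15 for Upk3b, neither of which was called by limma.

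Whether the effect of GR ablation differed between the stages was tested as an interaction, the E18.5 difference minus the E16.5 difference. Gpm6a passed, with -0.96 (SE 0.23, limma adjusted p = 0.0141), in a comparison where 4.78% of all tested genes were called lower and 3.62% higher. With E18.5 control replicate 3 left out its interaction was -0.81 (adjusted p = 0.00622), and with replicates 3 and 4 left out it was -0.78 (adjusted p = 0.0139). Upk3b had -0.62 (SE 0.26, adjusted p = 0.148) and Msln -1.80 (SE 0.89, adjusted p = 0.216), so for these genes the effects at the stages were not shown to differ, although only the E18.5 effect passed its own test.

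The 3 genes took different courses between E16.5 and E18.5. Msln rose steeply in both genotypes. Upk3b rose more moderately in both genotypes. Gpm6a rose slightly in controls and fell in GR ablation lungs.

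In controls, Msln was 6.34 higher at E18.5 than at E16.5 (SE 0.63, limma adjusted p = 5.17e-08), an 81.1-fold difference with all 5 late animals above all early ones. Since 2 of the 5 E16.5 values were dim, the fold depends on values near background, and with values below 4 set to 4 the difference was 6.01. Upk3b was 1.12 higher (SE 0.19, adjusted p = 2.81e-05), or 2.17-fold, also without overlap. Gpm6a was 0.40 higher (SE 0.16, adjusted p = 0.0298), with 3 of 5 late animals above all early ones. That call rested on replicate 3 of the E18.5 controls, since without it the difference was 0.25 (adjusted p = 0.102), and it was also lost without E16.5 control replicate 1 (0.35, adjusted p = 0.0760) or replicate 5 (0.36, adjusted p = 0.0665). In this comparison 35.3% of all tested genes were called higher, 35.5% were called lower and 25.9% were higher with no overlap.

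In GR ablation lungs, Msln was 4.54 higher at E18.5 than at E16.5 (adjusted p = 8.85e-06), a 23.2-fold difference with no overlap. Upk3b was 0.50 higher (SE 0.19, adjusted p = 0.0290), with 4 of 5 late animals above all early ones. The Upk3b call was lost when GR ablation replicate 3 of E16.5 was left out (0.35, adjusted p = 0.0983), and likewise without replicate 3 or 5 of E18.5 GR ablation (0.43, adjusted p = 0.0754, and 0.45, adjusted p = 0.0700). Gpm6a was 0.56 lower at E18.5 (a difference of -0.56, SE 0.16, adjusted p = 0.00626), at 68.0% of its E16.5 level, with 4 of 5 late animals below all early ones. Among all tested genes, 28.7% were called higher, 27.6% lower, and 22.1% were higher with no overlap.

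Set against E16.5 controls, E18.5 GR ablation lungs had Msln 4.65 higher (adjusted p = 8.79e-06) and Gpm6a lower by 0.53 on the log2 scale (a difference of -0.53, SE 0.16, adjusted p = 0.00962), each with all 5 late animals beyond all early controls. In this comparison 27.6% of all tested genes were called higher and 24.7% lower, and with no overlap 17.9% were higher and 15.2% lower. Upk3b had a difference of 0.38 (SE 0.19, 95% CI -0.01 to 0.77, adjusted p = 0.0933), which did not pass. Leaving out E16.5 control replicate 4 or E18.5 GR ablation replicate 4 took it past the threshold, with 0.48 (adjusted p = 0.0471) and 0.47 (adjusted p = 0.0490).

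The order of the groups thus differed by gene. Msln was highest in E18.5 controls, then in E18.5 GR ablation lungs, with both E16.5 groups lowest and not separated from each other. Upk3b had the same order, but E18.5 GR ablation lungs were not separated from E16.5 controls. By group means Gpm6a was highest in E18.5 controls and lowest in E18.5 GR ablation lungs, with the E16.5 groups between them and not separated. Its rise in controls was not called without E18.5 control replicate 3. The dimmer Gpm6a probe set, 1426442_at, was not called for the rise in controls (limma adjusted p = 0.224). Nor was it called for the fall in GR ablation lungs (limma adjusted p = 0.115).

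**Figure D2:**
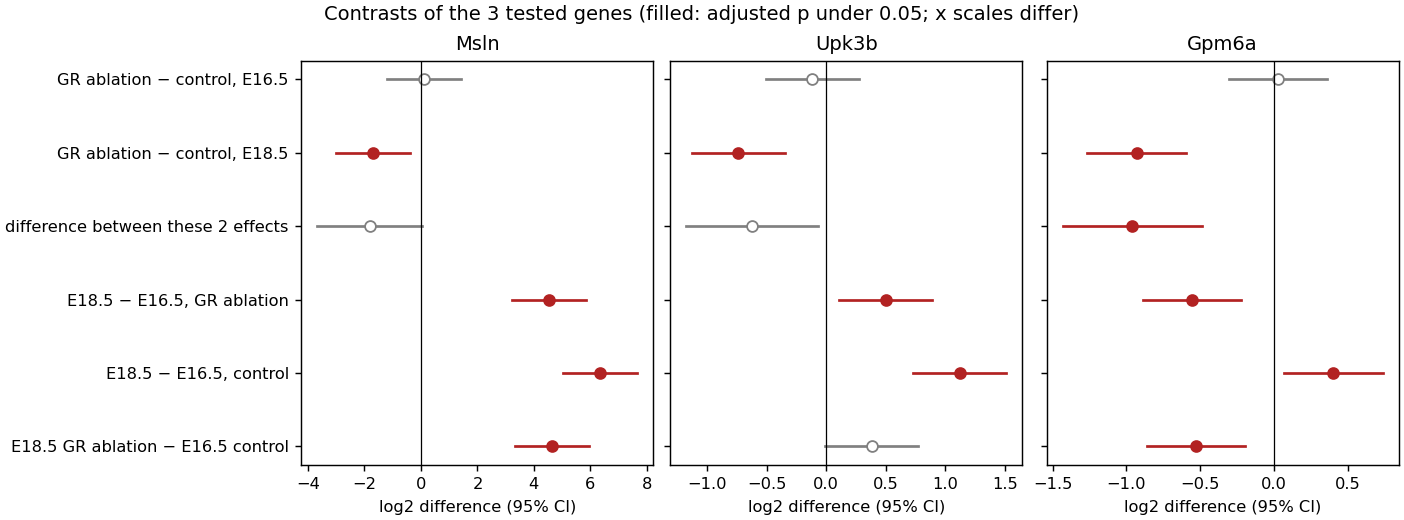
Log2 differences (x axis, with 95% CI from limma) of Msln, Upk3b and Gpm6a in the 6 comparisons listed on the y axis; filled red points have an adjusted p under 0.05 and open grey points do not, and x scales differ between genes. All 3 genes are below 0 for GR ablation at E18.5 and near 0 at E16.5, and Gpm6a changes sign between the stage comparisons of controls and of GR ablation lungs.

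The second probe sets of Upk3b and Gpm6a, fitted among all 12517 probe sets that passed the filter, gave the same direction at E18.5. For Upk3b, probe set 1434237_at read 7.76, 7.94, 8.31, 7.71 and 8.18 in E18.5 GR ablation lungs, against 8.80, 8.76, 9.26, 8.81 and 8.57 in E18.5 controls, with no overlap and a difference of -0.86 (adjusted p = 0.00128 by limma). For Gpm6a, probe set 1426442_at read 4.52, 4.57, 4.71, 4.51 and 5.12 in E18.5 GR ablation lungs, against 5.16, 5.26, 5.50, 5.50 and 4.90 in E18.5 controls. Here 1 mutant lay above the lowest control, and the difference was -0.57 (adjusted p = 0.0156). This dimmer Gpm6a probe set was not called between the stages in controls (0.24, adjusted p = 0.224) or in GR ablation lungs (-0.33, adjusted p = 0.115), nor for the interaction (-0.56, adjusted p = 0.167), nor against E16.5 controls (-0.34, adjusted p = 0.109), so those 4 calls for Gpm6a rest on probe set 1456741_s_at. At E16.5 neither second probe set was called (-0.08 for Upk3b and -0.01 for Gpm6a).

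Animals of one group differed from each other, and the genes were not all shown to vary together. Each value was expressed as its deviation from the mean of its group, and the 6 pairs of genes were compared over the 20 arrays by permutation within groups. Gpm6a and Upk3b varied together, with Pearson's r = 0.780 (permutation p = 0.00266, adjusted 0.0160 over the 6 pairs) and Spearman's rho = 0.660 (permutation p = 0.00520, adjusted 0.0312). Without the 2 arrays farthest out on Gpm6a, E18.5 control replicate 3 and E16.5 GR ablation replicate 3, r was 0.454. Without E18.5 control replicate 3 alone, r was 0.675 and the adjusted permutation p 0.0866, so the relation past the threshold rested on that animal. That animal also had the highest skeletal muscle list of the series, and the part of this in the relation was not tested.

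Msln was not shown to vary with Gpm6a or Upk3b. Its r was -0.252 with Gpm6a (rho = -0.212) and -0.254 with Upk3b (rho = -0.141), with an adjusted permutation p of 0.513 for both r values. Without the 2 arrays farthest out on Msln, r was -0.351 with Gpm6a and -0.143 with Upk3b. The pairs with the dim Wt1 did not pass either: r was 0.495 with Msln, 0.132 with Gpm6a and 0.219 with Upk3b (adjusted permutation p of 0.296, 0.640 and 0.513).

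**Figure D3:**
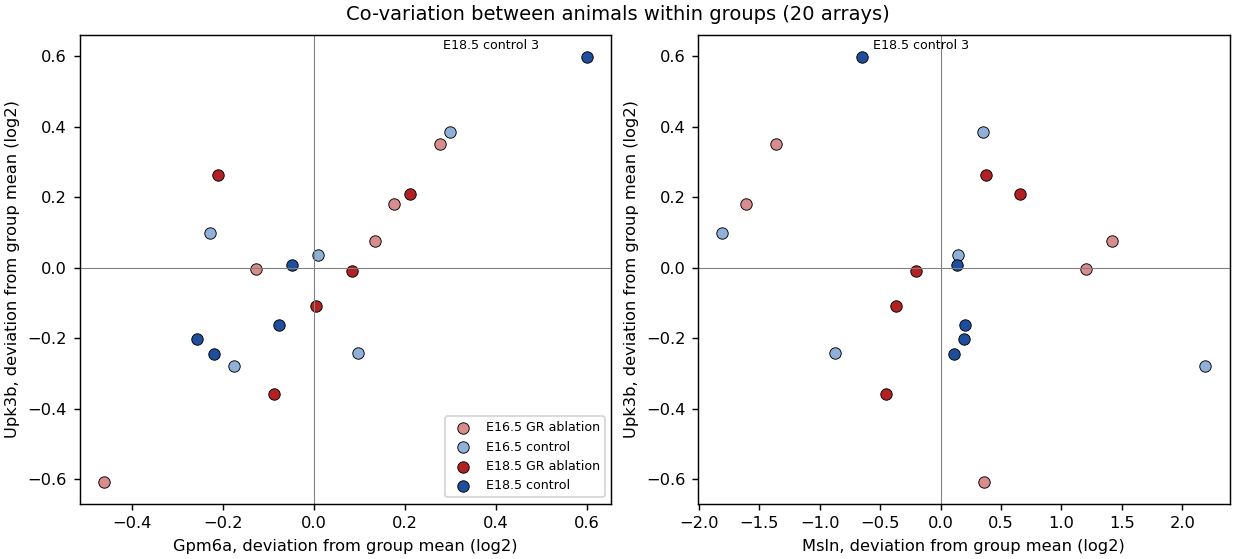
Deviation of each of the 20 animals from the mean of its group, in log2 units, for Gpm6a against Upk3b (left) and Msln against Upk3b (right), coloured by group. The left cloud rises to the right (r = 0.780) with E18.5 control replicate 3 at its upper end, and the right cloud shows no rise (r = -0.254).

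The genes that most resembled each member in these deviations were read out among 8067 others as a description, with no test. For Msln they were Slc34a2 (r = 0.963), the phosphate transporter of alveolar type II cells, Il18r1 (0.953), a receptor chain for interleukin 18, Ppp1r14c (0.948), an inhibitor of protein phosphatase 1, Sftpa1 (0.943), the surfactant protein A gene, and Hp (0.939), which encodes haptoglobin. Without E18.5 control replicate 3 these values were 0.943 to 0.962. The nearest genes thus included Slc34a2 and Sftpa1 of alveolar type II cells, and neither Upk3b nor Gpm6a. The r values of Msln weigh the E16.5 arrays most, where its spread was widest and some of its values were dim. Of the 4 genes, Msln was not shown to vary between animals with Upk3b and Gpm6a, and Wt1 was too dim to judge. The name mesothelial is therefore used for the 4 only by the rule that chose them.

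For Upk3b the nearest were Aldh1a2 (r = 0.799), which makes retinoic acid and is itself on the list of mesothelial genes below, Unc50 (0.794), Itih5 (0.793), a matrix-binding inter-alpha-trypsin inhibitor chain, Gas1 (0.792), a hedgehog co-receptor, and Pnpla8 (0.791), a phospholipase. Without E18.5 control replicate 3 they were 0.704 to 0.814. For Gpm6a they were Upk3b (0.780), Fap (0.774), a protease of activated fibroblasts, Sfrp2 (0.772), a secreted Wnt-binding protein, Fabp7 (0.772), a fatty acid binding protein of the developing brain, and Ssbp2 (0.767). Those of Gpm6a leaned most on 1 animal: without E18.5 control replicate 3 they were 0.571 to 0.675.

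A list of 12 further mesothelial genes was read beside the 4. Of these, 8 were on the array with a probe set of their own and 6 were tested, with Bnc1 and Cldn15 too dim. At E18.5 in GR ablation lungs, 2 were lower and 1 was higher, with a median difference of -0.50, against 0.03 over all tested genes. Of all tested genes 15.9% were called lower and 18.6% higher in this comparison. Rspo1, a secreted enhancer of Wnt signalling, fell by 0.85 on the log2 scale (adjusted p = 0.00140), and Rarres2, the chemerin gene, fell by 0.35 (adjusted p = 0.0220). Nkain4, a small membrane protein that associates with the sodium pump, rose by 0.42 (adjusted p = 0.0130). Aldh1a2 had -0.65 (adjusted p = 0.0519), Dmkn, a secreted protein of skin and other linings, had -0.78 (adjusted p = 0.202), and Calb2, which encodes the calcium-binding protein calretinin, had 0.35 (adjusted p = 0.520). Calb2 was dim at E18.5, with means of 3.75 in GR ablation and 3.40 in controls, and passed the filter through E16.5, so its E18.5 values are near background.

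These counts moved with the E18.5 controls of high muscle signal. Without replicate 3, Calb2 had 0.85 (adjusted p = 0.0131) and the count became 2 higher and 2 lower with this dim gene included. Without replicates 3 and 4 Calb2 had 0.68 (adjusted p = 0.0556) and the count was 1 higher (Nkain4) and 1 lower (Rspo1), Rarres2 having an adjusted p of 0.0855. The list median was -0.40 without replicate 3 and -0.35 without replicates 3 and 4, nearer to 0 than with all arrays. The mean log2 level of the 8 genes was 5.92 to 6.35 in E18.5 GR ablation lungs, against 7.01 in E18.5 control replicate 3 and 6.28 to 6.35 in the other E18.5 controls. Replicate 3 was thus the highest animal for this list, as it was for Gpm6a, Upk3b and the muscle list, and the highest in a list of 9 fibroblast genes (12.52). Other lists went the other way, as did Msln. Replicate 3 was the lowest E18.5 control for alveolar type I genes (11.19, others 11.85 to 12.04) and for cardiac muscle genes (6.36, others 6.84 to 7.01).

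**Figure D4:**
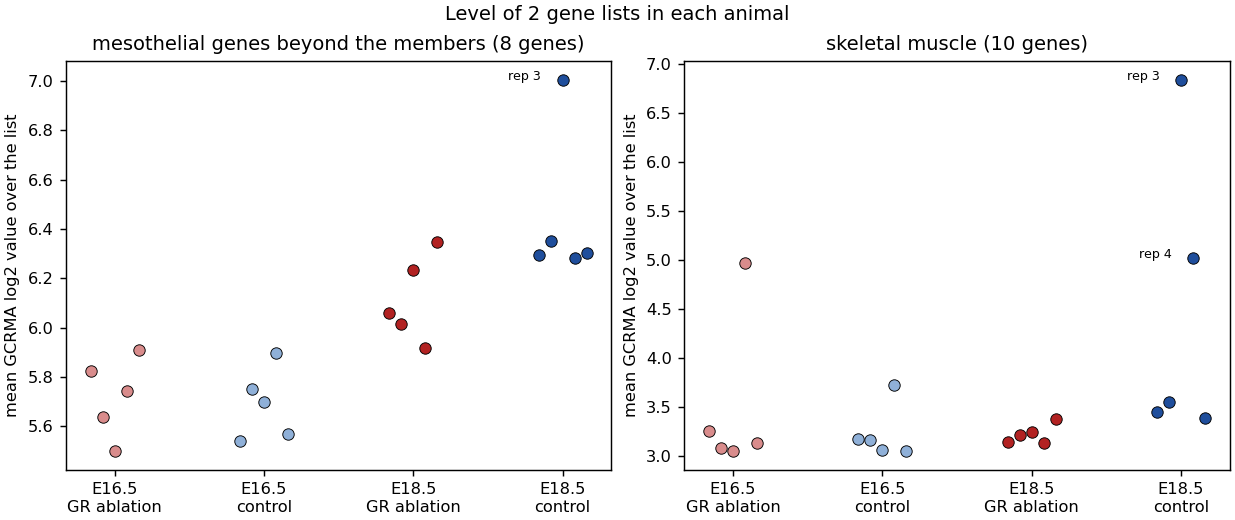
Mean log2 level (y axis) in each animal of the 8 further mesothelial genes on the array (left) and of 10 skeletal muscle genes (right), in E16.5 GR ablation, E16.5 control, E18.5 GR ablation and E18.5 control lungs. E18.5 control replicate 3 is the highest point in both panels, at 7.01 and 6.84, and replicate 4 is high only for muscle, at 5.03.

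A further list held 10 genes of mesothelium that lung epithelium also uses, of which 9 were tested. At E18.5 in GR ablation lungs, 5 were lower and 1 was higher, with a median of -0.48. Among all tested genes 15.9% were called lower and 18.6% higher there. The keratin gene Krt19 fell by 1.19 (adjusted p = 4.67e-05), Pdpn, a surface mucin-type protein of alveolar type I cells and mesothelium, fell by 0.72 (adjusted p = 4.89e-05), Podxl, a sialomucin, fell by 0.65 (adjusted p = 0.000112) and Krt7 fell by 0.62 (adjusted p = 1.72e-05). Krt8 was the other gene lower. Fgf9, a growth factor that fetal mesothelium sends to the mesenchyme, rose by 0.47 (adjusted p = 0.0202), although its mean was dim in both groups, at 3.95 in GR ablation and 3.48 in controls. These counts were the same without E18.5 control replicate 3.

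Genes of other cell types were read to show what moved beside the mesothelial genes. The shares called over all tested genes at E18.5 were 15.9% lower and 18.6% higher. All 6 tested genes of an alveolar type I list were lower at E18.5 in GR ablation lungs (median -0.90). Of 8 tested genes of lung epithelium, 1 was higher and 1 lower (median -0.14), and of 9 fibroblast genes 3 were lower (median -0.11). The lower epithelial gene was Krt8, which like Krt18 is also in the list shared with mesothelium. Without E18.5 control replicate 3 the fibroblast count was the same with a median of 0.02. Without replicates 3 and 4 it was 2 higher and 3 lower (median 0.09), as Lum (1.38, adjusted p = 0.00538) and Dcn (0.70, adjusted p = 0.0299), both genes of collagen-binding proteoglycans, were then called higher. Of 11 tested cardiac muscle genes, Myl2 was higher and Ryr2 lower (median -0.35), and the count was 1 higher and 2 lower both without E18.5 control replicate 3 and without replicates 3 and 4. The Myl2 mean was above the dim level only in E18.5 GR ablation lungs (4.69). It was 3.22 in E18.5 controls, 2.31 in E16.5 GR ablation lungs and 2.08 in E16.5 controls, so this call involves values near background. Of 3 tested skeletal muscle genes Ckm was lower, and without E18.5 control replicate 3 Tnnt1 was too (-0.80, adjusted p = 0.0245), but not without replicates 3 and 4 (-0.75, adjusted p = 0.0581). The median of these 3 genes was -1.96, then -1.15 without replicate 3 and -0.75 without replicates 3 and 4. Of 2 tested liver genes none was called by limma, and 0 had an unadjusted p under 0.05. Their median was -0.71, and -0.18 without E18.5 control replicates 3 and 4. The part of these cells in the falls of Msln, Gpm6a and Upk3b was not tested.

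Gpm6a is also a neuronal gene, so a neuronal and neuroendocrine list was set beside it. Of its 3 tested genes, Stmn2, a regulator of microtubules in growing neurites, fell by 2.11 (adjusted p = 4.42e-05) and Gap43, a growth cone protein, fell by 1.52 (adjusted p = 3.25e-05) at E18.5 in GR ablation lungs, with all 5 mutants below all controls for each. Among all tested genes 15.9% were called lower, and 9.13% were lower with no overlap. Uchl1 had 0.95 (adjusted p = 0.137), and without E18.5 control replicate 3 it had 1.55 (adjusted p = 0.000677), and without replicates 3 and 4 it had 1.80 (adjusted p = 0.000305). The median of the 3 tested genes was -1.52. The list's mean log2 level over 11 genes was 3.12 to 3.36 in E18.5 GR ablation lungs, against 3.36 to 3.85 in E18.5 controls, with 8 of the 11 genes dim in every lung of each of these groups. The part of nerves in the Gpm6a values was not tested.

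**Figure D5:**
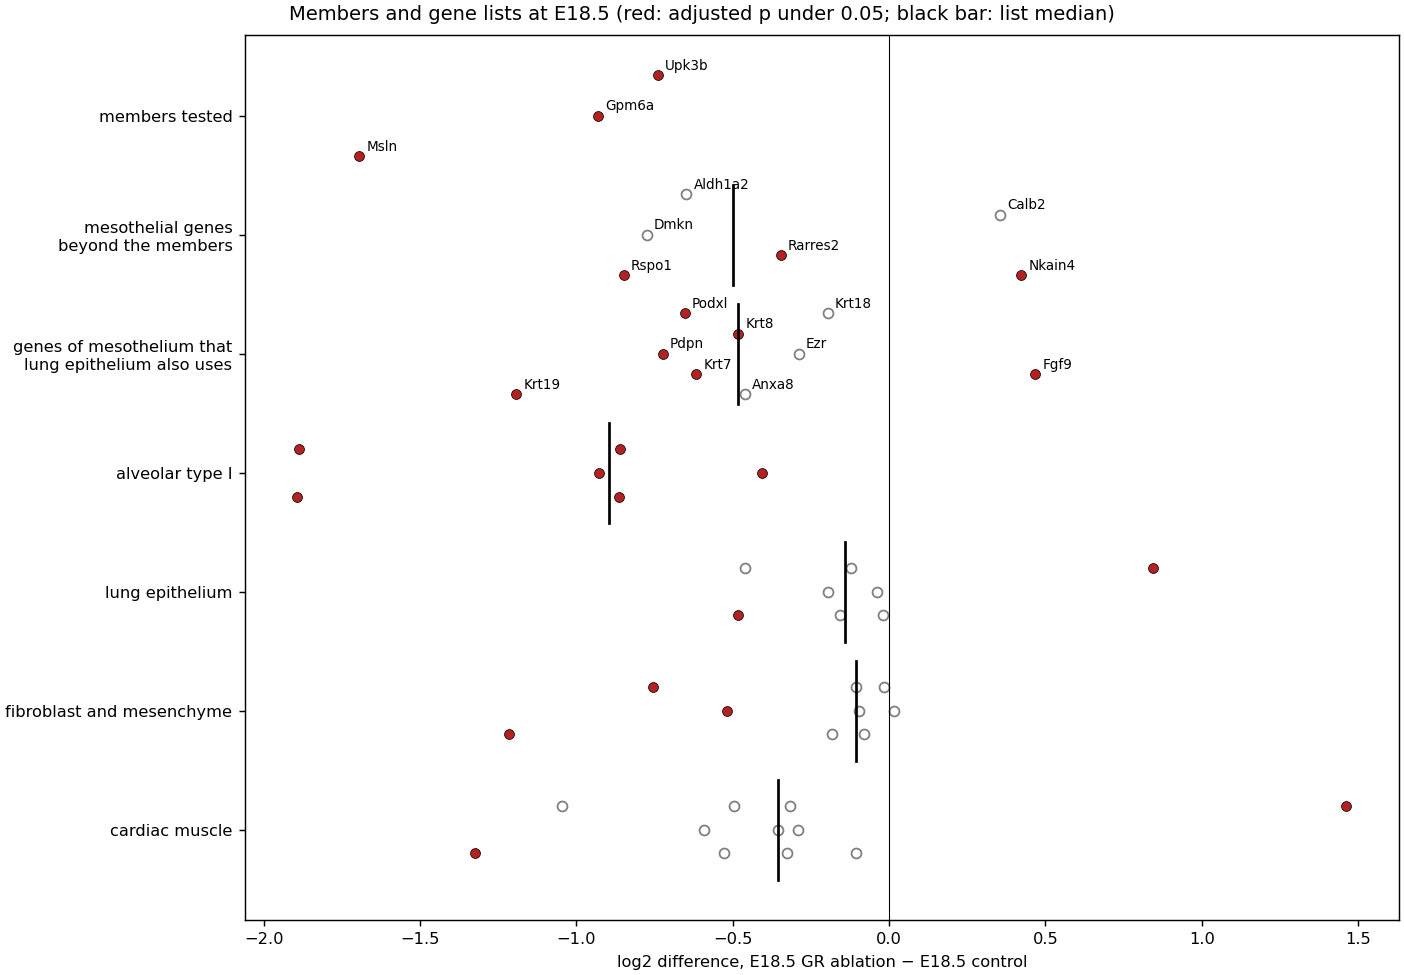
Log2 difference between E18.5 GR ablation and E18.5 control lungs (x axis) for the 3 tested members and for the tested genes of 6 lists (y axis, with genes spread vertically for legibility); red points have an adjusted p under 0.05 and black bars are list medians. The mesothelial lists and the alveolar type I list have medians from -0.48 to -0.90. The cardiac muscle list lies at -0.35, and the lung epithelium and fibroblast lists at -0.14 and -0.11. Not drawn are the skeletal muscle (-1.96), neuronal (-1.52) and liver (-0.71) lists, with 2 or 3 tested genes each.

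Relatives of the members were few on the array. Upk3a, the uroplakin nearest to Upk3b in name, averaged 4.57 in E18.5 GR ablation lungs and 5.07 in E18.5 controls, a difference of -0.50 (adjusted p = 0.0321), which was not called without control replicate 3 (-0.44, adjusted p = 0.0607) or without replicates 3 and 4 (-0.48, adjusted p = 0.0718). Gpm6b, the paralogue of Gpm6a, had -0.31 (adjusted p = 0.0653), and without control replicate 3 it had -0.44 (adjusted p = 0.00191), and without replicates 3 and 4 it also had -0.44 (adjusted p = 0.00541). Upk1a and Upk2 were dim, and Upk1b and Muc16 had no probe set that named them alone.

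Of 22 genes described as regulated by WT1 in other tissues, 11 were tested at E18.5, of which 1 was higher and 3 were lower in GR ablation lungs (median -0.12). The shares over all tested genes were 18.6% higher and 15.9% lower. Snai2, a repressor of epithelial genes, rose by 0.69 (adjusted p = 1.11e-05). When E18.5 control replicate 3 was left out, Thbs1, an adhesive matrix glycoprotein, was also called (0.62, adjusted p = 0.0378), but with replicates 3 and 4 left out it was not (0.48, adjusted p = 0.129). Podxl fell as above, Spry1, an inhibitor of receptor tyrosine kinase signalling, fell by 0.40 (adjusted p = 0.00275), and Pdgfa, a growth factor, fell by 0.33 (adjusted p = 0.0451). At E16.5 none of the 66 tested genes of the 11 lists was called by limma between GR ablation and control lungs, and 6 had an unadjusted p under 0.05.

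Between the stages in controls, 3 of the 6 further mesothelial genes were higher at E18.5 and 2 lower. Of all tested genes 35.3% were called higher and 35.5% lower there, so such calls were common. Dmkn was 4.65 higher (adjusted p = 4.92e-08), Rarres2 1.54 higher (adjusted p = 1.39e-09) and Rspo1 1.00 higher (adjusted p = 5.71e-05), while Calb2 fell by 1.83 (adjusted p = 0.000467) and Nkain4 fell by 0.31 (adjusted p = 0.0324). In GR ablation lungs 28.7% of all tested genes were called higher and 27.6% lower. Of the 6 further genes 2 were higher there, Dmkn (3.47, adjusted p = 5.53e-06) and Rarres2 (1.15, adjusted p = 2.77e-07), and 1 was lower, Calb2 (-1.13, adjusted p = 0.0216). That count was 2 higher and 2 lower in the fits without E18.5 control replicate 3 and without replicates 3 and 4, which alter the shared estimate of spread. Of the 9 tested genes shared with epithelium, 8 were higher and 1, Fgf9, was lower in controls at E18.5, and 8 were higher in GR ablation lungs.

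The interaction of stage and genotype was called for none of the 6 further mesothelial genes by limma, and 4 had an unadjusted p under 0.05. Without E18.5 control replicate 3 it was called for Calb2 (1.19, adjusted p = 0.0260) and Nkain4 (0.53, adjusted p = 0.00955), and without replicates 3 and 4 for Nkain4 (0.47, adjusted p = 0.0235) but not for the dim Calb2 (1.02, adjusted p = 0.0597). Of the 9 genes shared with epithelium, 4 passed toward lower values at E18.5: Krt19 (-0.83, adjusted p = 0.0412), Pdpn (-0.61, adjusted p = 0.0158), Krt7 (-0.49, adjusted p = 0.0131) and Podxl (-0.48, adjusted p = 0.0481). Among all 8068 tested genes, 678 were called for the interaction in either direction. With E18.5 control replicate 3 left out the dim Fgf9 was also called, toward higher values (0.58, adjusted p = 0.0431). With replicates 3 and 4 left out neither Fgf9 (0.60, adjusted p = 0.0583) nor Krt19 (-0.72, adjusted p = 0.0646) was called. Against E16.5 controls, E18.5 GR ablation lungs had 2 of the 6 further genes higher, Dmkn (3.88, adjusted p = 2.28e-06) and Rarres2 (1.20, adjusted p = 2.17e-07), and 1 lower, Calb2 (-1.47, adjusted p = 0.00470). Of all tested genes 27.6% were called higher and 24.7% lower in that comparison.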

How the data were processed

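Affymetrix Mouse430A_2 arrays of 20 mouse left lung lobes, 1 animal each (5 per group), gave the values. The authors deposited log2 values made with GCRMA, per the submitters' processing notes. GCRMA corrects background, scales arrays and gives 1 value per probe set, and the labels name no version. The precision is limited by the 5 arrays per group.

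The values were not transformed again. Of 22690 probe sets, 20380 name 1 gene in GEO's platform annotation. A gene was represented by its brightest probe set on average, and the members were read by all of theirs. The 4 group means were estimated in limma 3.58.1 under R 4.3.3 (lmFit, then eBayes) from the 20 arrays, two-sided, for the 8068 genes above 4 on 5 or more arrays, with Benjamini-Hochberg adjustment. Errors are SE for differences and SD for means. There were 6 contrasts. Deviations from group means were permuted within groups (100000 resamples; numpy 2.4.6, pandas 2.3.3, Python 3.11.15), and matplotlib 3.10.9 drew the figures. The code was tested on simulated data.

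The members, the 11 lists (123 entries) and the tests were chosen with earlier results of these data known. Text names the members, up to 4 called genes of a list with the largest change (2 where none was called, none at E16.5), relatives of the members (1 is not reported here) and the 5 nearest genes in pattern. The other named list genes, such as Aldh1a2, Dmkn, Calb2, Krt8, Fgf9, Uchl1, Thbs1, Tnnt1, Lum and Dcn at E18.5, were chosen after their values were seen. Alternatives covered filter, normalization, probe set choice, variance model, array weights, sex, the replicate number and each array left out. A floor at 4 and the omission of E18.5 control replicates 3 and 4 were added after the values were seen. Sequences are from RefSeq, GRCm38.p6.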

Additional observations from a re-analysis of the deposited data

Results flagged for a closer look

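Among the members, 2 values of single animals lay far from the rest of their group, among 24 groups of 5 examined (6 probe sets in 4 groups), where chance alone gives such a value in about 1 group in 20. Both came from E18.5 control replicate 3. Its Gpm6a value on probe set 1456741_s_at was 8.09, with the nearest control at 7.44, and its Msln value was 10.21, with the nearest control at 10.97. The gap took up 0.758 of the range of the group for Gpm6a and 0.900 for Msln, above the critical value of 0.71. The same animal had the highest skeletal muscle list of the series (6.84) and the lowest alveolar type I list of the E18.5 controls (11.19). The part of either in its values was not tested.

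The effect of GR ablation on Gpm6a differed between the stages, by -0.96 on the log2 scale (SE 0.23, limma adjusted p = 0.0141). On that probe set all 5 GR ablation lungs lay below all controls at E18.5, and the groups overlapped at E16.5. The dimmer Gpm6a probe set 1426442_at had -0.56, which was not called (limma adjusted p = 0.167), with 4 of 5 mutants below all controls at E18.5.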

How the results depend on the processing

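Directions held for every called difference of Msln, Gpm6a and Upk3b under all alternatives run, and the Gpm6a and Upk3b calls at E18.5 held throughout. Msln at E18.5 was not called without the filter on dim genes (-1.70, adjusted p = 0.0766), with sex as a covariate (-1.57, 0.0645) or without control replicates 3 and 4 (-1.87, 0.0609), and was -1.86 to -1.58 with 1 array left out. The change of Gpm6a in controls was not called with median centring (0.33), the mean of probe sets (0.32), array weights (0.15) or without control replicates 3 and 4 (0.22), and was 0.25 to 0.48 with 1 array left out. The change of Upk3b in GR ablation lungs was not called with median centring (0.45) or sex (0.30), and was 0.35 to 0.59 with 1 array left out. Upk3b in E18.5 GR ablation lungs against E16.5 controls was called with sex (0.45), and was 0.31 to 0.48 with 1 array left out. With array weights the Msln interaction was called (-2.29, adjusted p = 0.0215), making 2 members called for it. Differences at E16.5 changed sign around 0, uncalled: Msln with sex (-0.39) and from -0.34 to 0.66 with 1 array left out, Gpm6a with array weights (-0.20) and from -0.040 to 0.14, and Upk3b with sex (0.15) and from -0.21 to 0.035. The correlation of Gpm6a with Upk3b was 0.675 without E18.5 control replicate 3 and 0.667 without replicates 3 and 4. The cause of these shifts was not tested.

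Deviations of same-numbered mutants and controls correlated from -0.10 to 0.60 at E16.5 and from -0.43 to 0.21 at E18.5. The highest at E16.5 were 0.59 for replicate 1 and 0.60 for replicate 5. Differently numbered animals were not compared, so these values do not decide whether replicate numbers pair the animals. With the replicate block the change of Gpm6a in controls (0.40, adjusted p = 0.0530) and of Upk3b in GR ablation lungs (0.50, adjusted p = 0.0531) was not called, and the other calls of the members were unaltered. Genes called at E16.5 numbered 20, and 8 to 43 under the alternatives, and those called for the interaction 678, and 393 to 2244. Of 2112 list counts recomputed, 172 moved by over 1.5 times. Signal over background limits Wt1 in all lungs and Msln at E16.5.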
